A study of Homo sapiens with 16 samples.

Results

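The genes described here encode proteins of extracellular microfibrils and elastic fibres. They are the fibrillins FBN1 and FBN2, the latent TGF-β binding proteins LTBP1, LTBP2, LTBP3 and LTBP4, elastin (ELN), fibulin-5 (FBLN5), the microfibril-associated protein MFAP5 and THSD4, also named ADAMTSL6. These 10 genes, of 62700 in the annotation, were chosen by name with earlier results on the same H3K27ac lists in view, and their regions were selected on the authors' calls of loss or gain. A listed region was placed at a gene when any base lay in the gene body or within 100 kb of its annotated 5′ end. By this rule 25 of 7130 listed regions lay at these genes, 19 with loss and 6 with gain of H3K27ac. These numbers are a description, since the lists themselves chose the regions.

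The mark measured by ChIP-seq was H3K27ac, the histone H3 lysine acetylation found at active promoters and enhancers. The cells were LX-2, a long-established line of human hepatic stellate cells with the phenotype of myofibroblasts. They received the OGT inhibitor OSMI-1 (OGTi) at 50 µM for 24 h or served as controls, which the paper describes as not treated with it. OGT transfers O-GlcNAc onto serine and threonine residues of nuclear and cytosolic proteins. Each arm held 4 H3K27ac libraries of the same line, for which the labels name no engineered allele. The 8 input and column purified chromatin (CoP-seq) libraries were not analysed here. The authors called peaks against input, however, and each arm had 2 ChIP input libraries. The values available are the positions of 3507 lost and 3623 gained regions, without signal, replicate values or read depth, so that no error between replicates can be given and no test was run. Because unchanged regions and levels were not analysed, the identity of the cells could not be checked against marker genes, and a gene without a listed region may be acetylated in both arms or in neither.

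Fibrillins assemble head to tail into microfibrils, which form sheets and cables in most connective tissues and serve as a scaffold on which elastin is deposited and crosslinked. Fibulin-5 binds both elastin and cells and guides elastin onto the scaffold, while MFAP5 and THSD4 bind fibrillin-1. LTBP1, LTBP3 and LTBP4 hold TGF-β in its latent form, which LTBP2 does not bind, and LTBP1 ties it to microfibrils, so that the same fibres store the main fibrogenic cytokine of the liver. In fibrotic liver, activated stellate cells are a main source of this matrix.

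Listed regions were found at 5 of the 10 genes. THSD4 had 14 lost and 1 gained region, FBN1 had 4 lost and 1 gained, FBN2 had 1 gained, LTBP1 had 3 gained and LTBP3 had 1 lost region. No listed region lay at LTBP2, LTBP4, ELN, FBLN5 or MFAP5. Lost regions thus made up 76.0% of the 25 regions, compared with 49.2% of all listed regions, but this share rested on THSD4, without which 5 of 10 regions were lost. At the level of genes, 3 of 10 had at least 1 lost region, against 21.6% of 20046 protein-coding genes under the same rule, 4 of 10 had at least 1 gained region, against 30.5%, and 5 of 10 had neither, against 55.1%. Long genes can hold more regions. Of the 5 genes of at least 100 kb (THSD4, FBN1, FBN2, LTBP1 and LTBP2), 2 had lost regions, against 22.5% of protein-coding genes of that length, and 4 had gained regions, against 28.8%. Of the 5 shorter genes, LTBP3 alone had a listed region.

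**Figure D1:**
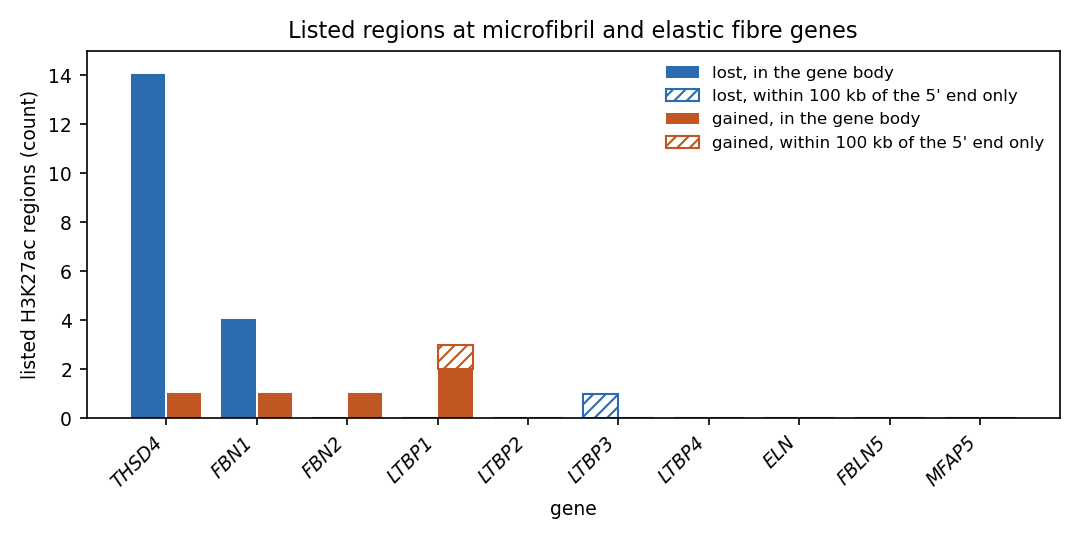
Number of listed H3K27ac regions (y axis) at each gene (x axis), lost in blue and gained in orange, with filled bars for regions in the gene body and hatched bars for regions only within 100 kb of the 5′ end. THSD4 holds 14 of the 19 lost regions, and 5 genes hold none of either kind.

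THSD4 is a secreted thrombospondin repeat protein that binds fibrillin-1 and promotes microfibril assembly. The gene lies on the plus strand of chromosome 15 (hg38 71096952 to 71783383, 686 kb), and all 15 of its listed regions lay in the gene body. Its single gained region, chr15:71115312-71116388 (1077 bp), covered the start and exon 1 of the canonical transcript, at 71115471, which lies 18.5 kb downstream of the outermost annotated 5′ end. The start of CT62, a non-coding gene on the opposite strand, lay 23 bp further downstream in the same region, so the gain cannot be given to one of the pair. The first lost region followed 162 kb further downstream. The canonical start was therefore listed as gained, and introns of the same gene as lost.

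The part of the gained region upstream of the canonical THSD4 start is shown because it is the only canonical promoter of these genes with a listed gain. It is 159 bases long (plus strand, hg38 chr15:71115312-71115470, 73.6% GC), overlaps an exon of CT62 and holds 17 CG dinucleotides, given in capitals.
THSD4 promoter: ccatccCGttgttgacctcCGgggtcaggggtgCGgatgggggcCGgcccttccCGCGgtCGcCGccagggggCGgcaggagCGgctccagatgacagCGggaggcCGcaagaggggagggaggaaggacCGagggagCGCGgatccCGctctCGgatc

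The lost regions of THSD4 were all intronic in the canonical transcript of 18 exons. One, chr15:71278017-71280398, lay in intron 6, and another, chr15:71561647-71563408, in intron 7. The other 12 formed a cluster at 71679303 to 71730809, a span of 51.5 kb or 7.50% of the gene, with 11 regions in intron 8 and 1 in intron 9. This last region, chr15:71728904-71730809, overlapped an exon of a shorter THSD4 transcript. The cluster began 582 kb downstream of the 5′ end and 116 kb downstream of the preceding lost region, and it ended 52.6 kb before the 3′ end of the gene. The nearest internal start of a THSD4 transcript, at 71660530, lay 18.8 kb upstream of it. None of the 14 lost regions lay within 2500 bp of any annotated start.

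**Figure D2:**
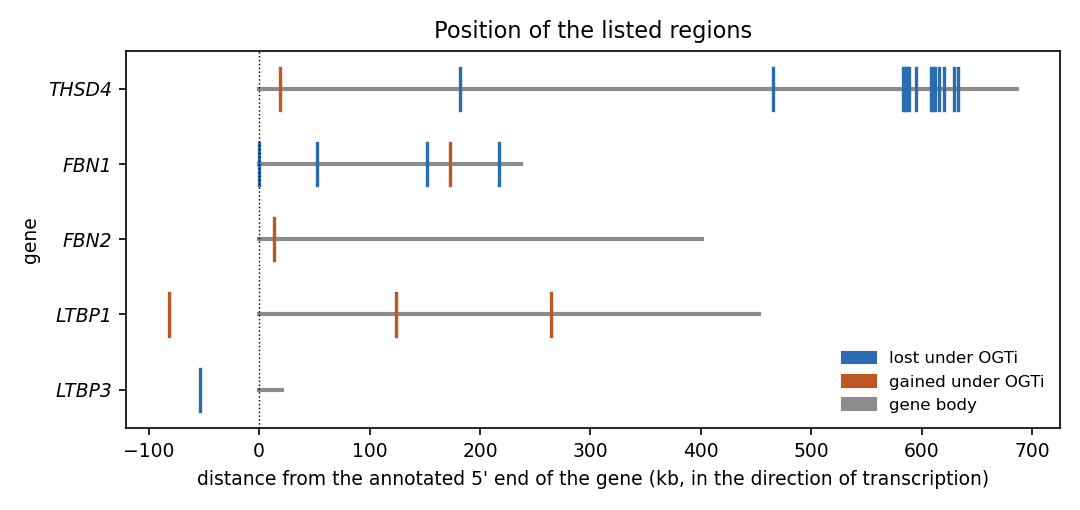
Centres of the listed regions (vertical ticks, lost in blue, gained in orange) along the 5 genes that hold any, with the distance from the annotated 5′ end in kb on the x axis and the gene body as a grey line. In THSD4, the gained region sits at 18.9 kb and 12 lost regions crowd between 583 and 633 kb.

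Lost regions covered 21.1 kb of the cluster (40.9%), and the largest gap between neighbours was 11515 bp. Several of them abutted, since the procedure of the authors cuts wide peaks into bins, and joining abutting regions left 7 blocks in the cluster and 9 over the gene. The first 4 regions of the cluster formed one block of abutting bins at 71679303 to 71686491. No gained region interrupted the cluster. In the whole list of lost regions, 3 separate loci, this one included, held at least 12 lost regions within a span of this length. Outside the gene, the nearest listed region was a lost one 23.4 kb beyond the 3′ end, and on the other side a gained one 239 kb before the 5′ end.

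**Figure D3:**
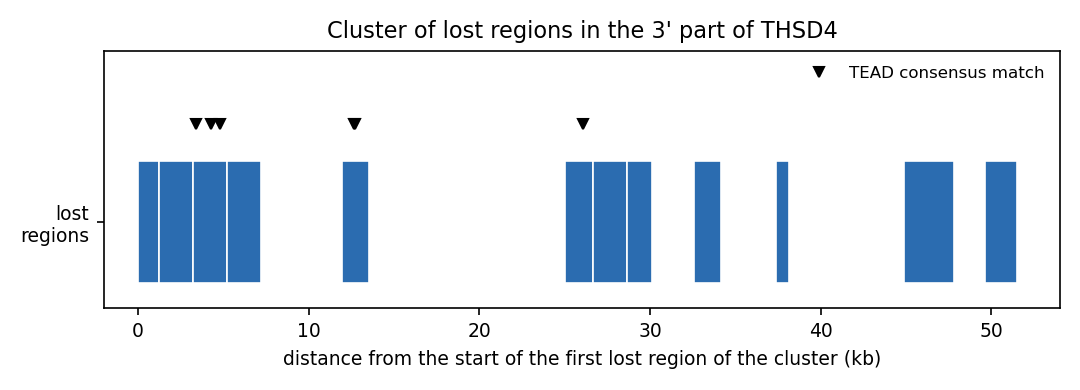
The 12 lost regions of the THSD4 cluster (blue boxes) against the distance from the start of the first one in kb (x axis), with triangles over matches to the TEAD consensus. The regions fall into 7 blocks over 51.5 kb, and the 6 matches lie in the first 6 regions.

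THSD4 is among the longest of human genes and was therefore set beside others of its size. The median number of lost regions in the body was 0 among 323 protein-coding genes of at least 500 kb, of which 25.1% held at least 1. Of all protein-coding genes, 2 held more lost regions than THSD4. Per 100 kb of gene, however, THSD4 (2.04) and FBN1 (1.68) were close to each other.

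**Figure D4:**
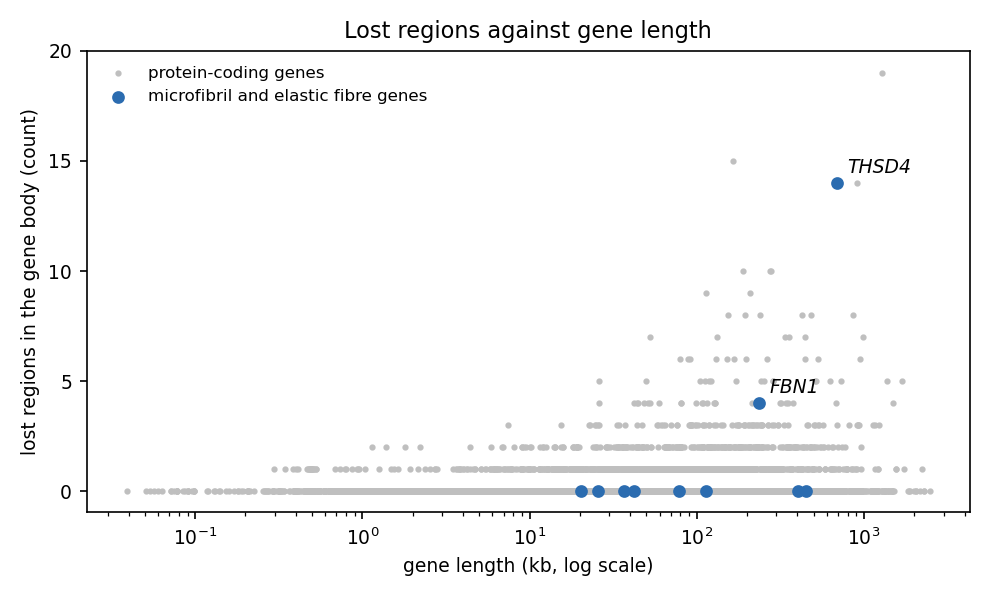
Lost regions in the gene body (y axis, count) against gene length (x axis, kb, log scale) for protein-coding genes in grey and the 10 genes in blue. THSD4 with 14 and FBN1 with 4 lost regions stand above zero, and the other 8 genes lie at zero.

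TEAD factors were a concern of the study, and their consensus was sought in the regions as any of the 4 words ACATTCCA, ACATTCCT, GCATTCCA and GCATTCCT on either strand. At THSD4, 4 of the 14 lost regions held 8 matches in all. Each is given with 20 bases on either side, on the plus strand of hg38, because these are the sites at which the lost regions could be read for a TEAD word, and the capitals mark the word. A TGGAATGT or AGGAATGT is a match on the minus strand. The first pair lies in the intron 6 region (chr15:71279144-71279191 and chr15:71280007-71280054), and the next 3 lie in the third region of the cluster (chr15:71682683-71682730, chr15:71683574-71683621 and chr15:71684061-71684108).
THSD4 intron 6, site 1: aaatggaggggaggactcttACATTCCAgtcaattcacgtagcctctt
THSD4 intron 6, site 2: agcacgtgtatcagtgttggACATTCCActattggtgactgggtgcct
THSD4 intron 8, site 1: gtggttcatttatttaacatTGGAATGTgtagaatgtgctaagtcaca
THSD4 intron 8, site 2: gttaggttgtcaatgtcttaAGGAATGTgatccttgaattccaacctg
THSD4 intron 8, site 3: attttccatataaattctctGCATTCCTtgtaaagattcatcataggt

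The remaining matches at THSD4 lay in the fifth region of the cluster, chr15:71691222-71692816, where a pair in opposite orientation stood close together, and in the sixth, chr15:71704332-71705972. The pair is shown in 100 bases (chr15:71691949-71692048, plus strand), the densest stretch of TEAD words in any lost region of these genes, and the single match in 48 bases (chr15:71705353-71705400).
THSD4 intron 8, pair: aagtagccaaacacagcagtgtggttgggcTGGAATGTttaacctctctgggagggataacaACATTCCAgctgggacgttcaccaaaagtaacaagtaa
THSD4 intron 8, site 6: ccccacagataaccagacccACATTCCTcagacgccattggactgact

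FBN1 encodes fibrillin-1, the main protein of microfibrils, whose mutations cause Marfan syndrome. The gene lies on the minus strand of chromosome 15 (48408313 to 48645721, 237 kb), and all its listed regions lay in the gene body. The first lost region, chr15:48644001-48646792 (2792 bp), covered the 5′ end of the gene, with 1721 bases in the gene and 1071 bases upstream, and took in exons 1 and 2 of the canonical transcript. It also covered the start of FBN1-DT, a non-coding gene read in the opposite direction. This was the only lost region within 2500 bp of the 5′ end of one of the 10 genes.

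The other lost regions of FBN1 were chr15:48591475-48594304 in intron 6, chr15:48492017-48494978 over exons 23 and 24, and chr15:48427469-48429468 over exons 57 and 58 of 66. Between the latter pair lay the gained region, chr15:48471936-48473578, over exon 35. Loss and gain thus alternated along the 3′ part of the gene, at centres 152, 173 and 217 kb from the 5′ end. The gained region and the last lost region each covered the start of a shorter annotated transcript, as well as exons, of 13 FBN1 transcripts in all. The 3 lost regions downstream of the promoter were single regions far apart, unlike those of THSD4.

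The lost promoter region of FBN1 held no TEAD word. One match each lay in the intron 6 region (chr15:48593399-48593446) and in the region over exons 23 and 24 (chr15:48493376-48493423), shown as above.
FBN1 intron 6: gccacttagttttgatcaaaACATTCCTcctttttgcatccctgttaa
FBN1 exon 23 to 24 region: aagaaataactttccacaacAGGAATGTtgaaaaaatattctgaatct

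FBN2 encodes fibrillin-2, the fibrillin that prevails in embryonic microfibrils. It is on the minus strand of chromosome 5 (128257909 to 128659185) and had a single gained region, chr5:128644963-128645967, centred 13.7 kb downstream of the annotated 5′ end. The region belonged to FBN2 only through the longest transcript models. The canonical transcript starts at 128538245, relative to which the region was centred at -107 kb, and 2 of 14 transcripts start upstream of the region. It also lay in the body of SLC27A6, a fatty acid transport protein gene on the opposite strand. The nearest lost region was 2951 kb from the 5′ end of FBN2, the largest such distance among the 10 genes.

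LTBP1 encodes the latent TGF-β binding protein that secures TGF-β to fibrillin microfibrils. It is on the plus strand of chromosome 2 (32946953 to 33399509, 453 kb) and had gained regions only. These were chr2:32865002-32865614, 81.6 kb upstream of the 5′ end in the non-coding gene LINC00486, chr2:33070220-33070962 in intron 3 and chr2:33211133-33211364 in intron 7. All 3 were narrow, at 613, 743 and 232 bp, compared with a median of 1697 bp over all gained regions. The nearest lost region was 537 kb from the 5′ end.

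LTBP3 encodes a latent TGF-β binding protein required for skeletal and dental development. Its single lost region, chr11:65611129-65612907, lay outside the gene, 52.2 kb upstream of the 5′ end on the minus strand of chromosome 11, and within 2500 bp of the start of MAP3K11, a kinase gene in which it lies. The rule therefore gave it to LTBP3 by distance alone. No listed region lay in the 20.4 kb of LTBP3 itself.

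The 5 genes without a listed region lie on chromosome 7 (ELN, 74027789 to 74069907), chromosome 14 (FBLN5, 91869411 to 91947987, and LTBP2, 74498183 to 74612378), chromosome 12 (MFAP5, 8637346 to 8662888) and chromosome 19 (LTBP4, 40592883 to 40629818). For ELN, which encodes the elastic core protein, the nearest lost region was 453 kb and the nearest gained region 1500 kb from the 5′ end. For FBLN5 these distances were 477 and 437 kb, and for MFAP5 1732 and 580 kb. LTBP2 had its nearest lost region at 841 kb and its nearest gained region at 527 kb, and LTBP4 at 167 and 373 kb. Over all 10 genes the median distance was 465 kb to a lost and 272 kb to a gained region, beside 360 and 235 kb over all protein-coding genes. At the edge of the 100 kb window, the outermost region inside was the gained one at LTBP1 (81.3 kb at its near edge). Among the nearest regions of each direction per gene, the first ones outside were a gained region at LTBP3 (135 kb) and the lost region at LTBP4 (167 kb).

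The regions were then compared in width and position with all listed regions of their direction. The 19 lost regions were 790 to 2962 bp wide with a median of 1961 bp, against 1905 bp over all lost regions. The 4 lost regions of FBN1, with a median of 2811 bp, were wider than those of THSD4, with a median of 1834 bp. The 6 gained regions were 232 to 1643 bp wide with a median of 874 bp, against 1697 bp over all gained regions. Only 2 of the 19 lost regions (10.5%) lay within 2500 bp of the 5′ end of any gene, those at FBN1 and at MAP3K11, beside 21.4% of all lost regions. Of the 6 gained regions, 1 (16.7%), that over the starts of CT62 and THSD4, did so, beside 40.5% of all gained regions. With the starts of all transcripts counted, these numbers were 3 (15.8%) and 2 (33.3%), beside 32.0% of all lost and 52.0% of all gained regions.

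In base composition, the promoter regions stood apart. The lost region over the FBN1 promoter had a GC content of 62.1% and a CpG ratio of 0.727, and the gained region over the canonical THSD4 start had 72.2% and 0.890. In each of the other 23 regions the CpG ratio was at most 0.287. The median CpG ratio was 0.207 in the 19 lost regions, beside 0.202 over all lost regions, and 0.162 in the 6 gained regions, beside 0.247. The median GC content was 44.8% in lost and 43.9% in gained regions, beside 46.8% and 46.1% in the full lists. The lost region in MAP3K11, within 2500 bp of the start of that gene, was rich in GC (59.9%) but had a CpG ratio of only 0.176.

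**Figure D5:**
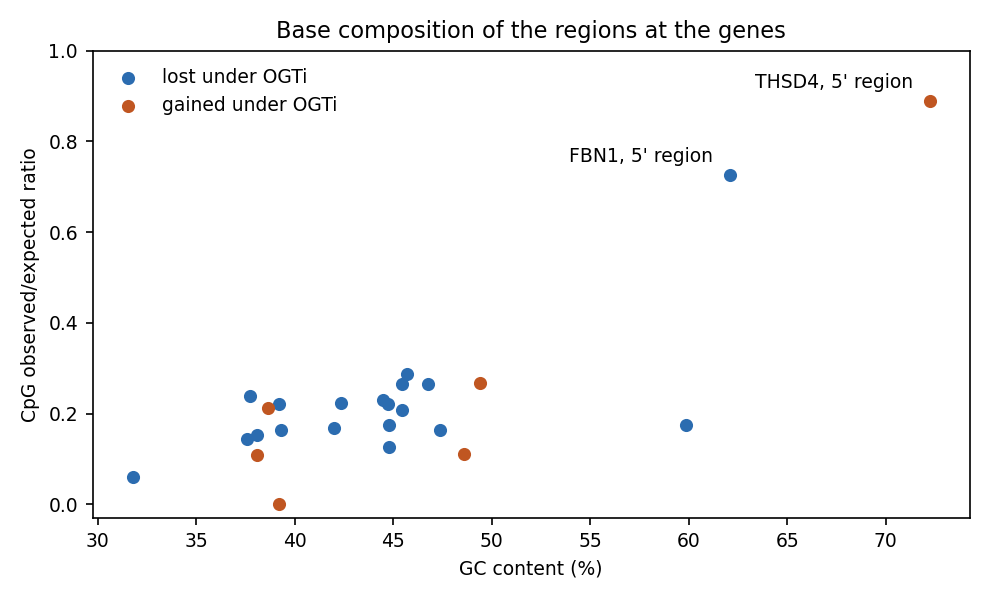
CpG observed/expected ratio (y axis) against GC content in percent (x axis) of the 25 regions at the genes, lost in blue and gained in orange. The 5′ regions of THSD4 (gained) and FBN1 (lost) have ratios of 0.890 and 0.727, and all others lie at or below 0.287.

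Motifs were counted in the 1000 bp around the centre of each region, so that regions of unequal width could be set side by side. In regions narrower than this, such as the 3 gained ones of LTBP1, the stretch runs past both edges. A TEAD word was present in 5 of 19 lost regions (26.3%), beside 33.0% of all lost regions, and in 2 of 6 gained regions (33.3%), beside 17.8% of all gained regions. The 2 gained regions with a word were those of FBN1 and FBN2. Over whole regions, 6 of 19 lost regions (31.6%) held the word, beside 42.9% of all lost regions. So did 2 of 6 gained regions (33.3%), beside 27.5% of all gained regions. The lost regions at these genes therefore did not hold the TEAD word more often than lost regions in general. The shorter core CATTCC was present in the central 1000 bp of 9 of 19 lost regions (47.4%), beside 60.5%, and around the centre of 4 of 6 gained regions, beside 45.8%, although at LTBP1 the matches lay outside the regions.

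The AP-1 word TGACTCA, the letters bound by FOS and JUN dimers, was present in the central 1000 bp of 3 lost regions (15.8%), beside 31.9% of all lost regions. All 3 were the last regions of the THSD4 cluster. Around the gained regions it was found once (16.7%), beside the narrowest region of LTBP1, against 33.0% of all gained regions. It was in none of the 6 regions themselves, against 39.6% of all gained regions over their whole width. The RUNX word TGTGGT was present in 10 of 19 lost regions (52.6%), beside 51.3% of all. In the same stretch, neither the SRF CArG box nor the ATF4-C/EBP word TGATGCAA was found in any of the 25 regions, beside 9.67% and 2.20% of all lost regions and 4.36% and 8.17% of all gained regions. Over whole regions, a CArG box was found in 4 lost regions, at THSD4 (2 regions) and at FBN1 (2 regions, that of the promoter included), or 21.1% beside 14.7% of all lost regions. Over whole regions, the ATF4-C/EBP word was found in 2 lost regions (10.5%), one in the THSD4 cluster and one in intron 6 of FBN1, beside 4.36% of all lost regions.

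A SMAD palindrome, GTCTAGAC, was sought because SMAD factors carry the signal of TGF-β. It was found in 1 of 19 lost regions (5.26%), the second region of the THSD4 cluster (chr15:71680531-71682530). Of all lost regions, 1.25% held it over their whole width and 0.713% in their central 1000 bp. None of the 6 gained regions held it, beside 0.938% of all gained regions over their whole width. The same word occurred in the 250 bases upstream of the canonical THSD4 start, which it precedes by 214 bases, and 48 bases outside the gained region. There, 0.190% of 20046 protein-coding promoters held it. Both are printed with 20 bases on each side (plus strand, chr15:71681285-71681332 and chr15:71115237-71115284) because they are the matches to this word in the regions and promoters of the 10 genes. The capitals mark the word, whose presence does not make it a site of binding.
THSD4 cluster: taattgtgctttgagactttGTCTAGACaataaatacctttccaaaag
THSD4 promoter, upstream: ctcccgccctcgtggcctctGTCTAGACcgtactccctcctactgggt

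The promoters of the 10 genes were also compared as sequence, over the 250 bases upstream of each canonical start. The CpG ratio was 0.210 at MFAP5, lower than at all but 13.7% of protein-coding promoters, 0.576 at ELN and 1.01 at FBN2, with a median of 0.749 over all promoters. None of the 10 promoters held the 8-letter TEAD word, which 2.39% of all promoters held, and MFAP5 was the only one with the core CATTCC, beside 9.87% of all promoters.

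Other genes of the same fibres were inspected under the same rule, in a list of 23 that was drawn up with the results above known. Of these, 3 had lost regions only, 5 gained regions only, 2 both and 13 neither. The shares with a lost region (5 genes, 21.7%), a gained region (7 genes, 30.4%) and neither (56.5%) were close to the 21.6%, 30.5% and 55.1% of all protein-coding genes, so that the list as a whole did not stand apart from them. The genes named next are those with a region in the body or within 2500 bp of the 5′ end. LOXL1, a lysyl oxidase that crosslinks elastin, had 7 lost and 1 gained region. Its lost regions included 3 abutting ones at the 5′ end (chr15:73921591-73928548 in all), whose centres also lay in LOXL1-AS1. Another lost region had its centre in STOML1. In the gene body of 26.1 kb lay 5 lost regions, several of them abutting. This equals 19.1 lost regions per 100 kb against 2.04 in THSD4. In a short gene few regions give a high value, as in ADAMTSL4 (17.3, with 2 lost regions in 11.6 kb). FBLN2, which encodes fibulin-2, had 5 lost regions, of which 1 (chr3:13547943-13548960) ended at -165 bp relative to the 5′ end and 1 lay in the body. ADAMTSL4, which like THSD4 encodes a protein of the ADAMTS-like family that binds fibrillin-1, had 2 abutting lost regions over and next to its 5′ end (chr1:150548709-150552181), 1 further lost region upstream and 2 gained regions outside the gene. TGFB2, a TGF-β ligand, had a gained region in its body (chr1:218349428-218351427), which began 4092 bp downstream of the 5′ end, and another upstream of the gene.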

How the data were processed

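H3K27ac ChIP-seq of control LX-2 cells and of cells treated with OSMI-1 (4 replicates each) was used as deposited. According to the methods of the study, reads were mapped to hg38 with Chromap, peaks were called per replicate against input with MACS2 (version 2.1.1.20160309 in the submitters' processing notes), and MAnorm2 divided peaks into bins of typically 2000 bp and tested all 8 libraries. The authors deposited 2 lists of 3 columns (chromosome, start, end), at an adjusted p of 0.15 in the list names, whereas the methods give a stricter threshold. The lists hold 3507 lost and 3623 gained regions, the same counts as the paper reports. Bins divide one peak into several regions, which raises region counts. Read depth is unknown. Genes came from GENCODE release 44 on hg38, and a canonical transcript is the one tagged so there. Starts were converted to count from 1, and all region ends fell within the hg38 chromosomes. Placement, GC content, CpG ratio (observed over expected from C and G counts) and motifs were computed with Python 3.11.15, pandas 2.3.3 and pysam 0.24.0. The placement and motif search were tested on simulated data. The 10 genes, the 23 related genes and the motifs were chosen with earlier results of these data known. All 10 genes are named, and related genes with a region in the body or within 2500 bp of the 5′ end. TEAD matches in lost regions were printed by rule, and the THSD4 promoter and SMAD sequences were chosen after their values were seen. A further promoter sequence is not reported here. Alternatives were windows of 50 kb, 200 kb or none, region centres, joined abutting regions, other start definitions, the whole region or the core word for TEAD and, chosen after seeing the data, leaving out THSD4.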

Additional observations from a re-analysis of the deposited data

How the results depend on the processing

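No paired analysis was possible because positions alone were listed and replicates carry no values of their own. Leaving out replicates and applying a stricter threshold were for this reason not run, and the unknown read depth limits which regions could be listed. Of 50 values under an alternative setting, 40 stayed within 1.5 times the main count or, for shares, within the 95% Wilson interval of the main share. This tally is lenient. All listed regions of THSD4 lay in the gene body, so narrower windows could not change its counts. The interval treats abutting regions as independent and is wide for few regions. It took in a rise of the TEAD share of gained regions from 33.3% to 66.7% with the core word. Lost regions at the genes ranged from 14 with abutting regions joined to 21 with a window of 200 kb, and gained ones from 5 to 9, but without THSD4 the lost regions were 5. The lost regions at THSD4 were 9 when abutting ones were joined. The single gene with lost regions alone, LTBP3, was no longer counted (0 genes) with a window of 50 kb or in gene bodies alone. The share of lost regions near a 5′ end was 40.0% without THSD4. The same share of gained regions was 0% when only the outermost 5′ ends of protein-coding genes counted, which leaves out the canonical THSD4 start. The share of protein-coding genes with a lost region was 6.66% in gene bodies alone and 22.5% among genes of at least 100 kb, and with a gained region 10.9% and 28.8%.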
